A study of Mus musculus with 5 samples.

Results

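The 10 transcription factor genes with roles in brown adipocyte identity, Prdm16, Ebf1, Ebf2, Ebf3, Ppara, Pparg, Cebpa, Cebpb, Zfp516 and Tbx15, were followed across the cell types of mouse interscapular brown adipose tissue (iBAT) by single-nuclei RNA sequencing (snRNAseq). They were taken by symbol, 10 of the 32285 genes counted, and all 10 were detected in both matrices. One matrix holds 2 libraries from 3-month-old mice, a littermate control (WT) and a Ucp1-STX4KO, in which Cre under the Ucp1 promoter deletes syntaxin 4 (Stx4a) in cells that use that promoter. The other holds 3 libraries from C57BL/6J mice of 2, 12 and 24 months. Per the study's methods the tissue came from male mice, with 4 named for the preparation and no division among the libraries given, and nuclei were sorted before loading, so the shares of cell types reflect the sort as well as the tissue.

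Each condition is 1 library, and nothing ties a barcode suffix to a genotype or an age. Libraries are therefore named here by their suffix, as 3-month library 1 and 2 and aging library 1, 2 and 3, and no comparison of genotypes or ages was made. Nuclei of a library share their source and were not treated as replicates, and no p-value was computed. Intervals are 95% intervals for counting error alone and leave out the spread between mice.

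Brown adipocytes burn fatty acids to make heat through the uncoupling protein UCP1. PPARγ, with C/EBPα and C/EBPβ, drives the general programme of fat cell differentiation, while PRDM16, EBF2 and ZFP516 are known to turn that programme towards the brown type and PPARα to switch on genes of fatty acid oxidation. EBF1 and EBF3 share the DNA-binding domain of EBF2, EBF1 being also a factor of B lymphocyte development, and TBX15 is a T-box factor of mesenchymal tissues and glycolytic muscle that has been tied to brown fat differentiation.

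Nuclei were assigned to a cell type where 1 of 9 lists of 8 marker genes led clearly, and neither the members nor Cyp2e1 or Aldh1a1 were in any list. The label calls the samples brown adipocytes. In the 3-month matrix 15269 of 20307 nuclei were gated as adipocyte, with 10414 in library 1 and 4855 in library 2. The aging matrix goes against its label: 1502 of the 27842 nuclei that passed the filter were gated as adipocyte and 16346 as endothelial, 2935 as mural (pericyte or smooth muscle), 661 as fibroblast or progenitor and 602 as Schwann. Adipocyte nuclei held a median of 5881 unique molecular identifiers (UMIs) in the 3-month matrix and 2276.5 in the aging matrix. Levels are given as CPM, the UMIs of a gene per 1000000 UMIs of the nuclei of a type. The targeted gene Stx4a read 60 CPM in adipocyte nuclei of 3-month library 1 and 50.2 in library 2, and neither value was used to name a genotype. Endothelial, mural and fibroblast or progenitor nuclei numbered at least 50 in all 5 libraries. Macrophage, T lymphocyte and skeletal muscle nuclei reached 50 only in 3-month library 2, and Schwann nuclei only in aging library 1, so values for those types rest on those libraries.

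Promoters of 7 members, in 10 windows of the 250 bases before a RefSeq start (GRCm38.p6), were searched on both strands for short motifs of the factors themselves. A pair of windows is shown, because Pparg and Cebpb are partners that stood highest in adipocytes and their windows hold motifs of the other factors; capitals mark the matches. The Cebpb window, chr2:167688665-167688914 on the plus strand, lies just before the gene and held the EBF motif CCCNNGGG. The Pparg window, chr6:115421816-115422065 on the plus strand, lies before an inner start of the gene and held the C/EBP motif TTGCNNAA at 2 places, once on each strand. Neither window overlaps an annotated exon.
Cebpb: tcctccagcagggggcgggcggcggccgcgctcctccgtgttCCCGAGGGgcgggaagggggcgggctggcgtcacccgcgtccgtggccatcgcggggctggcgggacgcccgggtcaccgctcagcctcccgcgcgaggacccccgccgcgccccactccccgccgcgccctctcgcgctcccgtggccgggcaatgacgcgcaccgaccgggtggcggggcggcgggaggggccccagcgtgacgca
Pparg: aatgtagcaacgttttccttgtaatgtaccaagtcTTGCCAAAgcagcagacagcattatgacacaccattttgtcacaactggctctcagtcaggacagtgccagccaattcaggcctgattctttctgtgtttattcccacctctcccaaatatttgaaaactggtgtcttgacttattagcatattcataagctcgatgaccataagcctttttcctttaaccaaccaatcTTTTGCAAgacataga
The EBF motif stood in 11.8% of 32851 windows of this length and, among the members, also in those of Ebf3 and Ppara. The C/EBP motif stood in 9.56% of all windows and in no other member's. The nuclear receptor motif AGGTCA stood in 14% of all windows and in both other windows of Pparg. These matches are descriptions of letters, not of binding.

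Comparing adipocyte nuclei with the other gated types showed that Ppara and Prdm16 were above every other compared type in all 5 libraries beyond counting error, that Pparg, Cebpa and Cebpb were highest in adipocytes but shared with other types, and that Ebf1, Ebf2, Ebf3, Zfp516 and Tbx15 read higher in another type in at least 1 library beyond counting error. A member was counted as higher where the adipocyte CPM was at least 2 times that of the other type at the middle of the order, and as lower where it was at most 0.5 times. In the 3-month matrix 5 of 10 members were higher (Prdm16, Ebf2, Ppara, Pparg and Cebpa) and 1 was lower (Tbx15), against 11.8% higher and 31.0% lower over 15896 genes. In the aging matrix 5 were higher (Prdm16, Ppara, Pparg, Cebpa and Cebpb) and 1 was lower (Tbx15), against 18.1% and 24.5% of 14891 genes. The adipocyte level exceeded that of each other type for 6 members in each matrix, against 16.1% and 31.6% of all genes. The median ratio to the middle type over the members was 1.97 in the 3-month and 2.10 in the aging matrix. Calls that rest on 1 library are those of Ebf2 and Pparg in the 3-month matrix, at 4.05 and 3.45 times in library 2 and at 0.73 and 1.97 times in library 1, where 3 other types reached 50 nuclei.

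**Figure D1:**
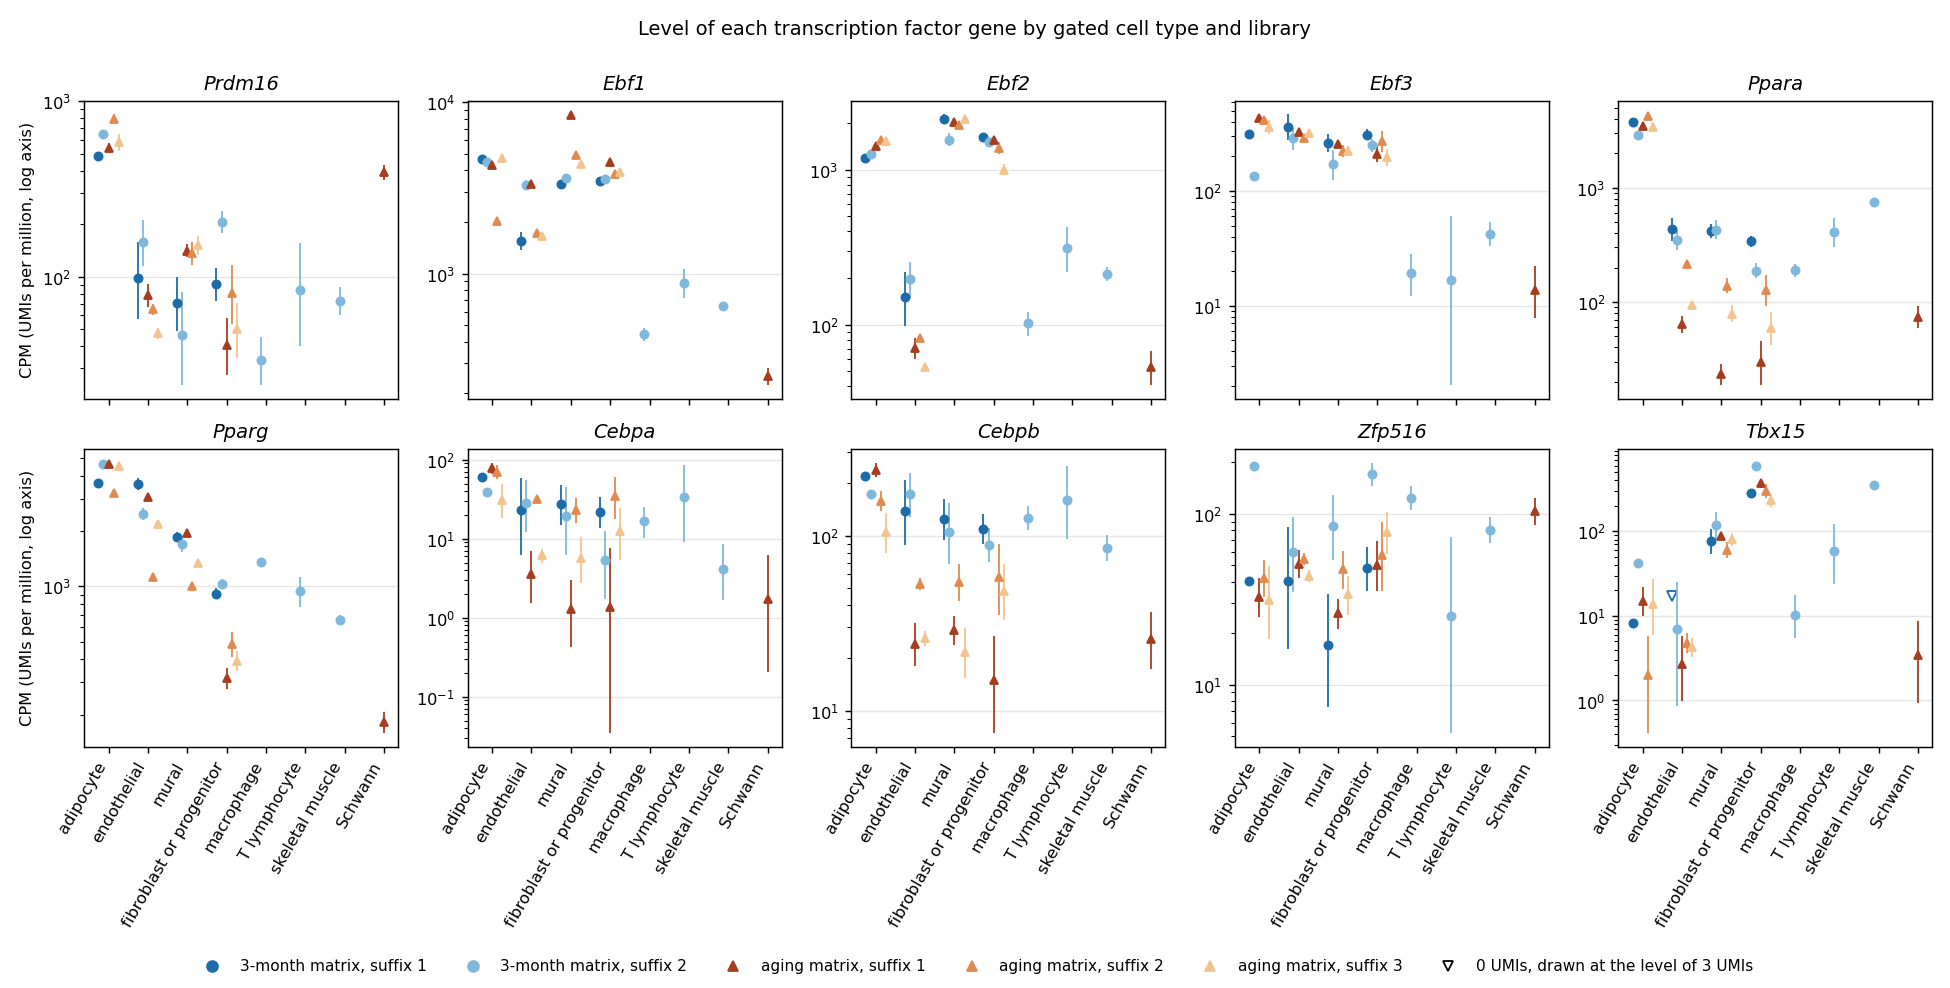
Level of each member in each gated cell type (horizontal axis) in CPM on a log axis, with 1 point per library for types of at least 50 nuclei and bars for the exact Poisson 95% interval. Ppara stands apart in adipocytes in all 5 libraries. Prdm16 is highest in adipocytes in all 5, with Schwann nuclei of aging library 1 nearest, at an adipocyte to Schwann ratio of 1.37. Ebf2 is highest in mural nuclei in all 5, and Tbx15 is highest in fibroblast or progenitor nuclei in all 5.

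Ppara (chr15:85734983-85802819), the fatty acid-sensing receptor, read 3776 and 2924 CPM in adipocyte nuclei of the 2 3-month libraries and 3483, 4294 and 3431 CPM in those of the 3 aging libraries. In endothelial nuclei it read 433 and 351 CPM in the 3-month and 63.6, 216 and 94.0 CPM in the aging libraries. The adipocyte values were all above those of every other type, from 3.89 times the skeletal muscle level in 3-month library 2 to 149.9 times the mural level in aging library 1. Some RNA of adipocytes reaches other nuclei in droplet data, and Ucp1, which those nuclei should lack, was set beside the members. Ucp1 in other types stood at 19.4% to 40.5% of its adipocyte level in the 3-month matrix and at 2.31% to 8.53% in the aging matrix. Ppara stood at 5.92% to 21.3% and at 1.56% to 3.70%. It was below the Ucp1 share in every type but skeletal muscle, where Ppara, a gene also used by muscle, read 21.3% and Ucp1 19.4%. How much of the Ppara in those nuclei came from adipocytes was not tested.

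Prdm16 (chr4:154316125-154636873), the zinc-finger coregulator that turns progenitors towards brown fat, read 484 and 645 CPM in adipocyte nuclei of the 3-month libraries and 538, 794 and 583 CPM in the aging libraries. In fibroblast or progenitor nuclei it read 91.0 and 204 CPM, and 40.9, 80.8 and 49.9 CPM. Adipocyte nuclei exceeded endothelial, mural and fibroblast or progenitor nuclei in 5 of 5 libraries, by 3.16 to 13.9 times. Schwann nuclei of aging library 1 came nearest, with 392 CPM (357 to 429.7) against 538 (504 to 573) in adipocytes, a ratio of 1.37. This was 59.8% of the adipocyte level over the whole matrix, where the Ucp1 share in Schwann nuclei was 4.65%. Thinned to 1000 UMIs each, 30.3% of Schwann nuclei held a Prdm16 UMI and 42.6% of adipocyte nuclei did, against 4.68% of endothelial nuclei. The Prdm16 share was also above that of Ucp1 in aging mural nuclei, at 22.0% against 2.59%, and in fibroblast or progenitor nuclei, at 8.10% against 2.32% in the aging and 27.8% against 22.2% in the 3-month matrix. In endothelial nuclei of the aging matrix Prdm16 read 56.8 CPM against 645 CPM in adipocytes, a share about level with that of Ucp1.

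Pparg (chr6:115360951-115490399), the master receptor of adipogenesis, read 3662 and 4670.1 CPM in adipocyte nuclei of the 3-month libraries and 4629, 3239.9 and 4559.5 CPM in the aging libraries. Endothelial nuclei came next with 3625 and 2474 CPM, and 3076, 1129 and 2201 CPM. In 3-month library 1 the 2 types did not differ beyond counting error, with a ratio of 1.01, and in the other 4 libraries adipocytes were higher by up to 2.87 times. Mural nuclei read 999.7 to 1961 CPM over the 5 libraries, and fibroblast or progenitor nuclei were lowest of the 4 types throughout, at 315 to 1029 CPM.

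Cebpa (chr7:35119293-35121928) and Cebpb (chr2:167688915-167690418), the C/EBP partners of Pparg, were low but highest in adipocytes. Cebpa read 60.3 and 39.1 CPM in adipocyte nuclei of the 3-month libraries and 78.3, 70.7 and 31.3 CPM in the aging libraries. In fibroblast or progenitor nuclei it read 22.0 and 5.35 CPM, and 1.36, 34.6 and 12.5 CPM, lower than in adipocytes of the same library in 5 of 5. Against endothelial and against mural nuclei the adipocyte level of Cebpa was higher beyond counting error in 4 of 5 libraries each. In the 3-month matrix it was at 1.49 (0.64 to 4.58) times the T lymphocyte level, no different beyond counting error. Cebpb read 219 and 172 CPM in adipocytes of the 3-month and 237, 158 and 104 CPM in those of the aging libraries. Its endothelial level was 172 CPM in 3-month library 2, no different from adipocytes beyond counting error, and between 24.2 and 53.0 CPM in the aging libraries. In the 3-month matrix no neighbouring pair of the other 6 types differed beyond counting error for Cebpb, and its share of the adipocyte level there, 41.0% to 77.4%, was above that of Ucp1 in each type. The ends of that order lay apart, with 159 CPM (125 to 200) in endothelial and 84.5 CPM (71.5 to 99.3) in skeletal muscle nuclei.

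The EBF genes were shared with stromal cells. Ebf2 (chr14:67233292-67430918), the brown-selective member, read 1196 and 1256 CPM in adipocyte nuclei of the 3-month libraries and 1424, 1559 and 1530.3 CPM in the aging libraries. Mural nuclei read 2141 and 1566 CPM, and 2040.0, 1945 and 2119 CPM. Mural levels were above adipocyte levels in 5 of 5 libraries, with adipocyte to mural ratios of 0.56 to 0.80 and intervals below 1 in each. Fibroblast or progenitor nuclei read 1636 and 1502 CPM, and 1567, 1377 and 1001 CPM, above adipocytes in 3 libraries and below in 2. Endothelial nuclei held little Ebf2, 53.1 to 197 CPM over the 5 libraries, and its share of the adipocyte level there was below that of Ucp1 in both matrices. After thinning, 76.5% of mural, 73.1% of fibroblast or progenitor and 61.1% of adipocyte nuclei of the 3-month matrix held an Ebf2 UMI, against 11.4% of macrophages.

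Ebf1 (chr11:44617317-45008091) read 4680.1 and 4459 CPM in adipocyte nuclei of the 3-month libraries and 4306, 2025 and 4719.5 CPM in the aging libraries. Mural nuclei read 3327 and 3597 CPM, and 8420.4, 4908 and 4349.6 CPM. Adipocytes were above mural nuclei in 3 libraries and below in 2, so the order of these types changed from library to library, while endothelial nuclei were below adipocytes in 5 of 5. Ebf3 (chr7:137193673-137314445) read 311 and 134 CPM in adipocytes of the 3-month and 429.9, 414 and 363 CPM in those of the aging libraries. Its order against the other types differed between libraries. In 3-month library 1 adipocytes did not differ beyond counting error from endothelial, mural or fibroblast or progenitor nuclei. In library 2 they were at 0.47 (0.38 to 0.59) times the endothelial and 0.54 (0.47 to 0.62) times the fibroblast or progenitor level of Ebf3.

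Zfp516, a zinc-finger activator of Ucp1 transcription, differed between libraries and between cell types. It read 40.6 CPM in adipocyte nuclei of 3-month library 1, 190 CPM in those of library 2, and 32.7, 42.3 and 31.3 CPM in the aging libraries. The higher level of 3-month library 2 was also seen in its fibroblast or progenitor nuclei, 171 against 48.1 CPM, and in its mural nuclei, 85.3 against 17.1 CPM. Within library 2 adipocytes were at 3.18 (1.99 to 5.47) times the endothelial level of Zfp516, 2.23 times the mural and 2.35 times the skeletal muscle level, and did not differ beyond counting error from fibroblast or progenitor nuclei. Endothelial nuclei read 40.4 and 59.7 CPM of it in the 3-month libraries, on 7 and 17 UMIs. Macrophages of 3-month library 2 read 124 CPM, and Schwann nuclei of aging library 1 read 104 CPM (86.0 to 124) against 32.7 CPM (24.8 to 42.2) in its adipocytes.

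Tbx15 (chr3:99240381-99354259) was higher in stromal and muscle nuclei than in adipocytes. It read 8.22 and 42.5 CPM in adipocyte nuclei of the 3-month libraries and 15.2, 1.98 and 13.9 CPM in the aging libraries, the second of which rests on 3 UMIs. Fibroblast or progenitor nuclei read 281 and 599.8 CPM, and 370.4, 303 and 232 CPM. They were above adipocytes in 5 of 5 libraries, as were mural nuclei at 60.7 to 120.2 CPM. Skeletal muscle nuclei of 3-month library 2 read 355 CPM (327 to 384). Endothelial nuclei of 3-month library 1 held 0 Tbx15 UMIs in 62 nuclei, which allows up to 17.3 CPM by a limit of 3 counts.

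**Figure D2:**
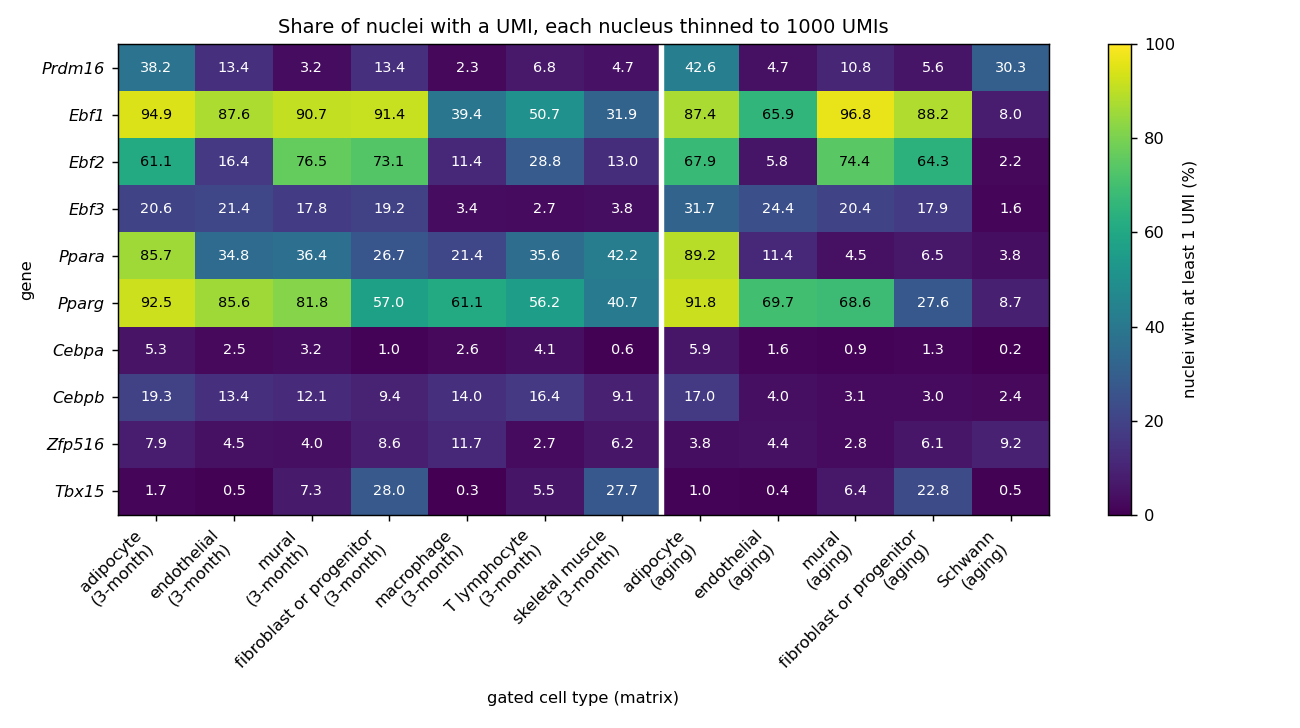
Percent of nuclei with at least 1 UMI of each member (rows) after every nucleus was thinned to 1000 UMIs, by gated type and matrix (columns); colour and printed number both give the percent. Ebf1, Pparg and Ppara are detected in over 85% of adipocyte nuclei of both matrices, Ebf2 more often in mural than in adipocyte nuclei, and Tbx15 in 28.0% of 3-month fibroblast or progenitor nuclei against 1.70% of adipocyte nuclei.

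Within adipocyte nuclei thinned to 1000 UMIs, Ebf1 was detected in 94.9%, Pparg in 92.5% and Ppara in 85.7% of the 14973 nuclei of the 3-month matrix deep enough. Cebpa was detected in 5.28%, Zfp516 in 7.87% and Tbx15 in 1.70%. The variance of the UMI count between nuclei was 2.46 times its mean for Ppara and 2.30 for Ebf1, against 1.05 for both Cebpa and Cebpb. The means themselves were 3.55 and 4.51 UMIs, against 0.055 for Cebpa and 0.22 for Cebpb. Because this ratio grows with the mean, it does not rank these genes by how much they vary between nuclei. Nuclei of both libraries are pooled in these values, so differences between libraries are part of the spread.

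The genes most like each member were sought over 12 profiles, the types with at least 50 nuclei of both matrices, among 10459 genes, with Pearson's r of log2(CPM + 5). Ppara was most like Erbb4 (r = 0.99) and Acacb (0.99), and Cebpb most like Irf4 (0.98), a partner of the thermogenic programme. The likeliest profile was Klhdc8b at 0.94 for Ebf2 among genes apart from its locus, Nhsl2 at 0.93 for Ebf1, Hoxa3 at 0.93 for Ebf3, Pmepa1 at 0.91 for Prdm16, Pfkl at 0.92 for Pparg, Dnhd1 at 0.95 for Cebpa, Sgsm3 at 0.90 for Zfp516 and Sobp at 0.94 for Tbx15. Of the named genes, 3, 4930438E09Rik with Ebf2 (0.95), Gm12158 with Ebf1 (0.91) and Gm44079 with Pparg (0.91), overlap the member on the opposite strand, and whether counting used strand is not given in the sources used here, so their reads and the member's may not be told apart. Among the members, Ebf1 and Ebf3 (r = 0.88), Ppara and Cebpb (0.83) and Ebf1 and Ebf2 (0.81) were most alike. Profiles of a matrix share libraries and carry-over RNA, and these correlations are descriptions.

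Other genes of the programme were counted the same way. The shares over all genes to set beside these counts were 11.8% higher and 31.0% lower in the 3-month matrix. In the aging matrix they were 18.1% and 24.5%. Of 15 coactivators and partners of these factors, 14 had enough UMIs, and 7 were higher in adipocytes and 0 lower in the 3-month matrix, and 8 and 0 in the aging matrix. Ppargc1b, a coactivator of oxidative metabolism, was at 8.47 and 41.1 times the middle type, while the corepressor Ctbp1 was at 0.61 and 0.84 times. Of 10 brown target genes 8 were higher in the 3-month and 10 in the aging matrix, from Cox8b at 1.50 and 3.22 times to Pank1 at 6.80 times and Adrb3 at 37.9 times. Of 8 family relatives of the members 6 had enough UMIs and 0 were higher in either matrix, with 2 lower in the 3-month and 3 in the aging matrix, and an interval that left out 1 for 1 and 3 of these. Ebf4 was lowest in the 3-month matrix at 0.10 times, and Mecom, the paralogue of Prdm16, read 105 CPM in adipocytes, 0.10 times its endothelial level. Of 7 opposing regulators 0 were higher in either matrix, with 3 of 5 lower in the 3-month and 1 of 6 in the aging matrix, Nr2f2 being lower in both at 0.40 and 0.18 times. The interval left out 1 for 2 of the 3 and for the 1, the other being Gata2, set against 1 UMI. Of 4 and 3 white-type genes with enough UMIs, 4 and 3 were past the fold, Nnat at 2.72 and 9.15 times. The interval left out 1 for 2 of the 4 in the 3-month matrix, Retn and Nnat, and for all 3 in the aging matrix. These list ratios pool libraries. In the 3-month matrix 10414 of 15269 adipocyte nuclei were of library 1. Library 2 held 314 of 352 macrophages, 67 of 74 T lymphocytes and 336 of 345 skeletal muscle nuclei. In adipocyte nuclei without Cyp2e1 or Aldh1a1 UMIs, Ppargc1a read 779 CPM in library 1 and 15700 CPM in library 2. Library and cell type are therefore not fully told apart in the 3-month list counts.

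Adipocyte nuclei with at least 1 UMI of Cyp2e1 or Aldh1a1, genes used to mark an adipocyte subset of lower thermogenic state, were then compared with those that had none, within each library. In the 3-month matrix nuclei with such UMIs held less Ppara, 0.60 times the level (0.59 to 0.61), and less Prdm16, 0.69 times (0.67 to 0.70), and more Cebpa, 1.51 times (1.38 to 1.64). Pparg and Ebf1 differed by less, at 0.93 times each. In library 1 alone Pparg was at 0.92 times, close to Ppara at 0.91 and Prdm16 at 0.92. The ratio is stratified by library (Mantel-Haenszel), and a member was counted where it was past 1.5 times in either direction with an interval that left out 1. By that rule 1 of 10 members was higher (Cebpa) and 1 lower (Ppara), against 7.09% higher and 3.71% lower over 12204 genes, whose median ratio was 1.0, beside 0.89 over the members.

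The class held 2271 of 15269 adipocyte nuclei in the 3-month matrix, of which 370 (3.55%) were in library 1 and 1901 (39.2%) in library 2, so the stratified values lean on library 2. In library 2 Cyp2e1 was detected in 35.4% of adipocyte nuclei, 14% of macrophages and 17.9% of T lymphocytes, at median depths of 4933, 3451.5 and 1676 UMIs, and Aldh1a1 in 12.0%, 1.59% and 1.49%. In library 1 Cyp2e1 was detected in 2.18% of adipocyte nuclei, below the shares of library 2 in all 3 types. The source of the Cyp2e1 UMIs in macrophages and T lymphocytes, and their part in the class, was not tested. Nuclei of the class were deeper, with a median of 7097 against 6197 UMIs in library 1 and 5950.0 against 4361 in library 2.

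Marker UMIs of other cell types moved with the class in library 1. The 8 other lists summed to 513 CPM in nuclei with a UMI of the pair against 209.6 CPM without in library 1, and to 606 against 563 CPM in library 2. The fibroblast or progenitor list was higher for 6 of 8 markers in library 1, at 174 against 26.2 CPM, and for 2 of 8 in library 2, at 88.3 against 84.0 CPM. The skeletal muscle list read 57.9 against 4.89 CPM in library 1 and 89.0 against 115 CPM in library 2. The adipocyte list used for gating was itself higher in the class, at 9781 against 9049 CPM in library 1, for 7 of 8 markers. In library 2 it read 16383 against 10743 CPM and was higher for 8 of 8. The part of this difference in the members' ratios was not tested. One fibroblast or progenitor and 1 skeletal muscle marker were at 0 in the class of library 1, and their part in the members' ratios was not tested beyond the values without such nuclei.

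**Figure D3:**
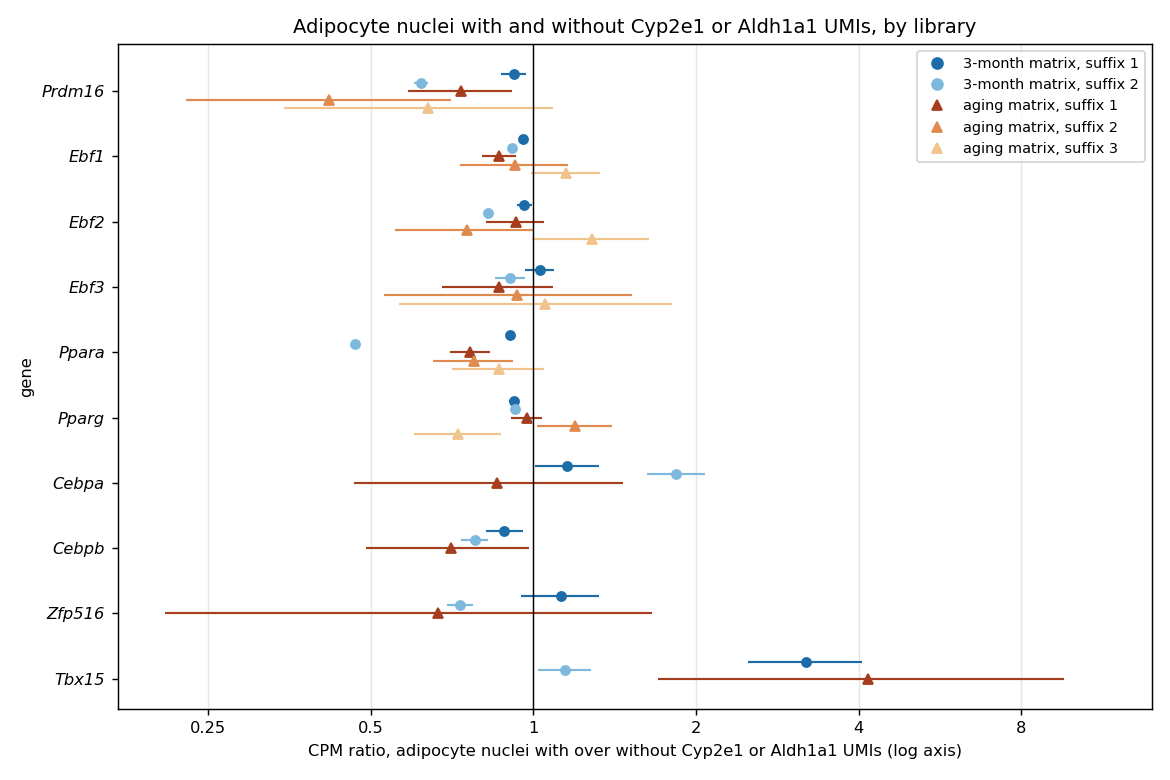
Ratio of each member's CPM in adipocyte nuclei with over without Cyp2e1 or Aldh1a1 UMIs, by library, on a log axis with exact 95% intervals; ratios from fewer than 5 UMIs in the class are not drawn and the vertical line marks no difference. Ppara lies below 1 in all 5 libraries, lowest in 3-month library 2 and with an interval that includes 1 in aging library 3. Pparg and Ebf1 lie between 0.73 and 1.2, and Tbx15 lies above 1 in the 3 libraries drawn.

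The ratios differed between the libraries. Ppara read 3437 CPM with and 3792 CPM without the pair in 3-month library 1, a ratio of 0.91 (0.89 to 0.92), and 1808 against 3865 CPM in library 2, a ratio of 0.47 (0.46 to 0.47). Prdm16 read 446 against 485 CPM in library 1, a ratio of 0.92, and 485 against 781 CPM in library 2, a ratio of 0.62. Both genes were lower in the class as a whole in each library, and the intervals of the 2 libraries did not overlap for either. In library 1 the 260 nuclei with 1 UMI of the pair read 3950 CPM of Ppara (3867 to 4034), above nuclei with none. They read 476 CPM of Prdm16 (448 to 506), no different from nuclei with none beyond counting error. The 75 nuclei of library 1 with 2 to 4 UMIs read 2532 CPM of Ppara (2416 to 2651) and 400 CPM of Prdm16 (354 to 449).

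Cebpa read 69.3 against 59.9 CPM in library 1, a ratio of 1.16 (1.01 to 1.32), and 51.9 against 28.3 CPM in library 2, a ratio of 1.84 (1.63 to 2.08). Cebpb was lower in both, at 0.88 and 0.78 times. Ebf2 was at 0.96 and 0.82 times. Zfp516 changed side, at 1.13 (0.95 to 1.33) in library 1 and 0.73 (0.69 to 0.77) in library 2, and Tbx15 was at 3.20 (2.49 to 4.05) and 1.14 (1.02 to 1.28). Ebf3 and Pparg stayed between 0.90 and 1.03 times in both. Pparg was at 0.92 (0.90 to 0.94) in library 1 and 0.93 in library 2. In library 1 Ppara and Prdm16 thus stood close to Pparg, with Cebpb below them.

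The differences were larger at higher numbers of UMIs of the pair in 3-month library 2. From 0 through 1, 2 to 4, 5 to 9 and 10 or more UMIs per nucleus, with 2954, 759, 559, 332 and 251 nuclei, Ppara read 3865, 3257, 1337, 998 and 733 CPM. Prdm16 read 781, 713, 440.4, 337 and 291 CPM over the same steps, and Ebf2 1365, 1285, 1193, 1094 and 776 CPM. These 3 members were lower at every step, as was Ucp1, from 1137 to 177 CPM. So were Cebpb, from 191 to 103 CPM, Zfp516, from 216 to 103 CPM, Ebf1, from 4645 to 3556 CPM, and Pparg. Cebpa went the other way, from 28.3 through 42.5, 52.4 and 55.3 to 64.3 CPM, while Pparg went only from 4832 to 4146 CPM. The median depth went from 4361 to 9142 UMIs per nucleus over these steps and the other types' markers from 563 to 631 CPM. Over both 3-month libraries, with each nucleus thinned to 1000 UMIs before classing, 948 nuclei held a UMI of the pair and 14025 held none. Ppara was then at 0.42 times and Cebpa at 1.69 times.

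**Figure D4:**
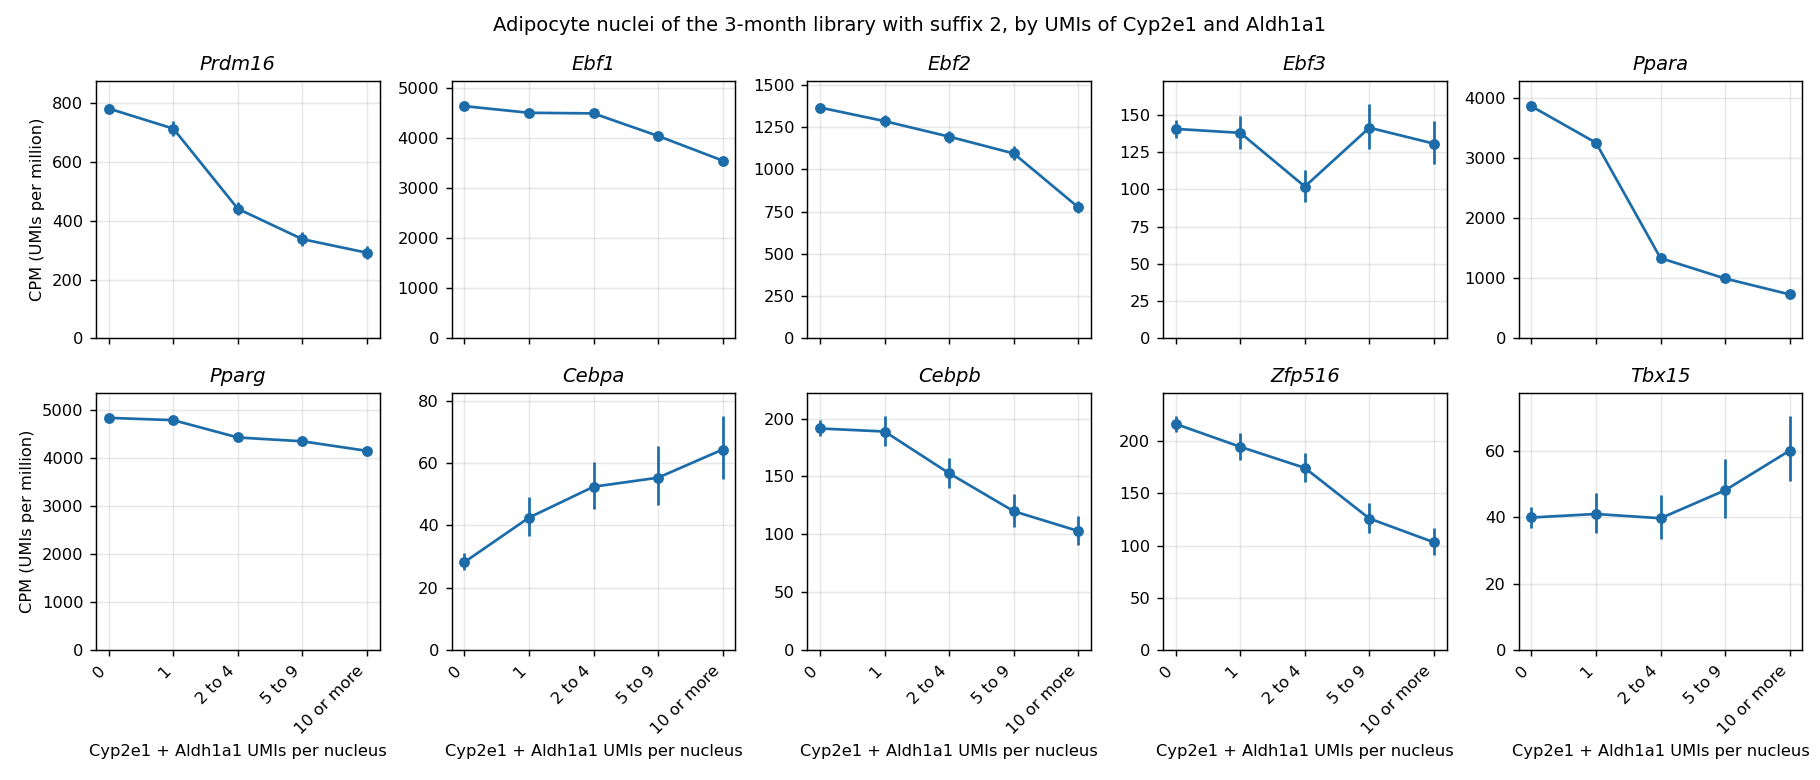
Level of each member in CPM (vertical axes from 0) in adipocyte nuclei of 3-month library 2, by the number of Cyp2e1 and Aldh1a1 UMIs in the nucleus, with exact Poisson 95% intervals. Ppara goes from 3865 to 733 CPM and Prdm16 from 781 to 291 CPM over the 5 steps, and Cebpa from 28.3 to 64.3 CPM.

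At 5 or more UMIs of the pair against none, a class added after the data were seen, 35 nuclei of library 1 and 583 of library 2 remained. Ppara was at 0.63 (0.59 to 0.67) and 0.22 (0.22 to 0.23) times and Prdm16 at 0.77 and 0.40 times in the 2 libraries. Cebpa was at 1.67 and 2.12 times. Tbx15 was at 8.04 times in library 1, on 27 UMIs, and 1.36 in library 2. In aging library 1, 12 nuclei of this kind gave 0.27 (0.21 to 0.35) for Ppara and 0.46 (0.26 to 0.76) for Prdm16.

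Without the nuclei that held any marker UMI of another type, also added after the data were seen, 93 nuclei with a UMI of the pair remained in 3-month library 1 and 163 in library 2. Ppara was then at 0.94 (0.90 to 0.98) in library 1 and 0.72 (0.69 to 0.76) in library 2, and Prdm16 at 0.95 (0.84 to 1.07) and 0.71 (0.64 to 0.79). Cebpa was at 1.15 (0.82 to 1.57) and 1.08 (0.61 to 1.87), and Tbx15 at 2.07 (0.88 to 4.20) and 0.81 (0.50 to 1.29). Cebpb was at 0.83 (0.68 to 0.998) and 1.11 (0.92 to 1.34). These nuclei of library 2 held a mean of 2.56 UMIs of the pair at a median depth of 4080.0 UMIs, against 4.55 at 5950.0 in its whole class, so the ratios are not like for like with those of the whole class. In these nuclei only Ppara had an interval below 1 in both libraries. In library 1 the interval was also below 1 for Ebf2 at 0.87 (0.80 to 0.94), Pparg at 0.90 (0.86 to 0.94), Ebf1 at 0.93 (0.89 to 0.97) and Cebpb. In library 2 it was also below 1 for Prdm16, Ebf3 at 0.76 (0.59 to 0.97) and Zfp516 at 0.74 (0.61 to 0.90). No member was past 1.5 times in the stratified ratio.

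In the aging matrix 76 of 1502 adipocyte nuclei held a UMI of the pair, 49, 16 and 11 in the 3 libraries. Of the 8 members with at least 200 UMIs, 0 were higher and 2 lower, Prdm16 at 0.66 (0.55 to 0.80) and Cebpb at 0.65 (0.47 to 0.89), against 6.49% of 3605 genes in each direction. Ppara was at 0.78 (0.72 to 0.83) and lay below 1 in 3 of 3 libraries, at 0.76, 0.78 and 0.86. Prdm16 was also below 1 in 3 of 3, at 0.74, 0.42 and 0.64. In library 3 the intervals included 1, at 0.71 to 1.05 for Ppara and 0.34 to 1.09 for Prdm16. Prdm16 rested on 14 class UMIs in each of libraries 2 and 3. In library 1 the 20 nuclei with 1 UMI of the pair read 3929 CPM of Ppara (3538 to 4351), against 3588 CPM (3494 to 3683) with none. Without library 2 Prdm16 was at 0.72 times, and without library 3 Cebpb was at 0.69 times, each no longer past the fold. Cebpb rested on 42 UMIs in the class, 38 of them in library 1, and Cebpa on 18, with a ratio of 0.83 (0.51 to 1.35). Tbx15 and Zfp516 were under the minimum, at 38 and 140 UMIs in all. The markers of other types summed to 1278 against 639.9 CPM in library 1, where the endothelial list was higher for 8 of 8 genes, and to 1784 against 1833 and 1685 against 1852 CPM in libraries 2 and 3, and their part in the ratios was not tested.

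The same lists were counted between the classes of the 3-month matrix, beside shares over all genes of 7.09% higher and 3.71% lower. For the aging counts below, the share was 6.49% in each direction. No share over all genes is given here for single libraries. Of 10 brown targets 0 were higher and 7 lower, from Elovl3 at 0.44 times, while Adrb3 was at 1.46 times, within the fold. This count rests on library 2, where 9 were lower and 1 higher, against 1 lower and 0 higher in library 1. Ucp1 was at 0.83 times in library 1 and 0.44 in library 2, and Ppara at 0.91 and 0.47. Of 14 partners 0 were higher and 3 lower, namely the coactivators Ppargc1a at 0.48 and Ppargc1b at 0.61 times and Esrrg at 0.58 times. In library 1 alone 0 of the 14 were past the fold, with Ppargc1a at 0.87, Ppargc1b at 0.86 and Esrrg at 0.83 times, against 0.47, 0.50 and 0.46 times in library 2. All 3 white-type genes with enough UMIs were higher, Nnat at 5.31, Retn at 4.42 and Lep at 3.24 times, and all 3 were past the fold in each library. Of 4 opposing regulators and 4 family relatives 0 were past the fold, with Zfp423, a repressor of brown fate in white fat, at 1.47 times, while 2 of the opposing regulators were higher in library 2 alone. In the aging matrix 1 of 8 brown targets was higher, Adrb3 at 1.62 times, and 1 lower, Cpt1b at 0.67 times. Of 9 partners 1 was higher, Irf4 at 3.00 times, and 3 lower, Esrra at 0.57, Ppargc1b at 0.66 and Ppargc1a at 0.66 times. In the 3-month matrix Irf4 was within the fold at 0.88 times, with 1.41 in library 1 and 0.81 in library 2. The aging calls lean on aging library 1, which held 66 of the 71 class UMIs of Irf4 and 121 of the 154 of Adrb3. In that library 5 of 8 brown targets were lower and 1 higher, against 0 and 0 in each of aging libraries 2 and 3. Adrb3 was at 0.83 (0.46 to 1.39) in aging library 3. The 1 white-type gene with enough UMIs, Nnat, was at 8.81 times, with 120 of its 129 class UMIs in aging library 1. Past the fold were 0 of 2 opposing regulators and 0 of 3 family relatives.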

How the data were processed

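Per the labels and the study's methods, the authors aligned 10x reads of sorted nuclei to mm10 and deposited UMI counts per gene and barcode made with Cell Ranger 6.1.2 with a forced number of cells (the aging libraries hold 10000 barcodes each, the 3-month libraries 11201 and 9106); Seurat 4.1.0 is named for the authors' own clustering, which was not used here. Whether intronic reads or strand were used in counting is not given in the sources used here. Total UMIs were 116053743 in the 3-month and 54656055 in the aging matrix, with medians of 4970.0 and 1553 per nucleus. Members, gene lists and markers were chosen with earlier results of these data known.

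Barcodes with at least 200 UMIs and 100 genes were kept (20307 and 27842; the stated upper limits, 2000 UMIs and 3000 genes, leave 2763 and 18756 and were tried as an alternative). A nucleus went to the marker list with the most UMIs if it had at least 5 from at least 3 genes and 3 times the next list. No doublet caller was run: 2090 nuclei of the 3-month and 3120 of the aging matrix reached the minimum on 2 or more lists, of which 1024 and 1168 were still gated. Within a matrix, 23 and 99 barcode sequences occurred in more than 1 library. Types with at least 50 nuclei were compared on genes with at least 50 UMIs, and adipocyte classes on genes with at least 200 UMIs. CPM, exact Poisson and binomial intervals (95%) and Mantel-Haenszel ratios were computed in Python 3.11.15 with numpy 2.4.6 and scipy 1.17.1, and the scripts were tested on simulated data. Named genes were all members, list genes with the largest or smallest ratios, and 14 of the 30 genes most like a member (3 each), the others being left out for length or not reported here. Overlaps and coordinates are from GENCODE on GRCm38 and promoters from RefSeq.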

Additional observations from a re-analysis of the deposited data

How the results depend on the processing

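No paired analysis was possible because the barcode suffixes carry no replicate number and no test was made. Of the members' ratios between cell types, 15 changed side of 1, 128 moved out of their interval and 157 stayed within it; for the adipocyte classes these were 8, 91 and 161. Ppara, Prdm16, Pparg, Cebpa and Cebpb stayed above 1 between cell types, and Ppara, Prdm16 and Cebpb below 1 between classes, under every alternative that gave a value for the matrix. Within single libraries Cebpb was at 1.11 in 3-month library 2 without nuclei with other types' markers. The cause of the changes was not tested. No share over all genes is given for the alternatives, so the counts of members under them stand alone.

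Against the highest other type, 2 members were higher in the 3-month matrix and 2 lower in the aging matrix, and Ebf2 was at 0.63 and 0.73. Prdm16 was at 1.67 times in the aging matrix by that measure, no longer past the fold. Ebf2 was also at 0.72 (dominance of 10 times), 0.73 (3-month library 1 alone), 0.91 (aging library 1 alone, and 0.91 in the full stated range of UMIs) and 0.99 (without aging library 3). Ebf1 in the aging matrix was at 1.87 (dominance of 2 times), 1.05 (without library 2), 1.2 (library 3 alone), 1.28 (all other nuclei pooled) and 1.92 (types of 20 nuclei), and in the 3-month matrix at 0.84 in the full stated range. Tbx15 in the aging matrix was at 1.51 (dominance of 2 times) and 2.00 (types of 20 nuclei), with 0 members lower under both. The counts also moved to 0 lower (3-month, full range), 3 higher (3-month library 1 alone) and 2 lower (aging, full range or Adipoq alone).

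Between classes of the 3-month matrix the counts higher and lower were 0 and 1 in the full range, 1 and 0 in library 1 alone (Tbx15, in place of Cebpa), 1 and 2 in library 2 alone, with at least 2 UMIs and after thinning, 2 and 2 without strata, 0 and 3 by Aldh1a1 alone, 2 and 4 with at least 5 UMIs, and 0 and 0 without nuclei with other types' markers. Ratios that changed side were Ebf1 1.03, Ebf2 1.05 and Pparg 1.06 (full range), Zfp516 1.13 (library 1 alone), Pparg 1.09 and Zfp516 1.87 (no strata), and Tbx15 0.99 (without other types' markers). In the aging matrix the lower count was 1 without library 2, without library 3, with depth strata and with no strata, where Ebf1 was at 1.08, and 0 by Cyp2e1 alone. Stricter, thinned, Aldh1a1, single-library, full-range and marker-free classes of the aging matrix, and those without library 1, without the deepest nuclei or at a dominance of 10 times, left under 50 nuclei and gave no value. Tbx15 in aging adipocytes rests on 38 UMIs.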

Other observations

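In types with fewer than 50 nuclei the members gave a few values. The 8 B lymphocyte nuclei of the 3-month matrix held 75 Ebf1 UMIs, 6191 CPM (4869.8 to 7761), above the 4618 CPM of its adipocytes, and the 1 such nucleus of the aging matrix held 16. EBF1 is a known factor of B lymphocyte development. The 33 Schwann nuclei of the 3-month matrix held 32 Prdm16 UMIs, 412 CPM (282 to 582), beside 386 CPM in the 602 Schwann nuclei of the aging matrix.

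Nuclei that no marker list claimed numbered 3274 in the 3-month and 5735 in the aging matrix. In the 3-month matrix they read 215 CPM of Tbx15 (205 to 225), against 17.9 CPM in adipocytes and 439 CPM in fibroblast or progenitor nuclei, and 831 CPM of Ppara. The 2158 barcodes of the aging matrix under the lower limits, all in library 1, read 143 CPM of Ppara (103 to 192) and 119 CPM of Ucp1 (83.6 to 165).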
